A study of Mus musculus with 23 samples.

Results

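Loss of microRNA (miRNA) biogenesis in adult Schwann cells (SCs) was examined by pooling the 2 inducible mutant lines of the study, in 12 of its 23 RNA sequencing libraries. The 6 mutants were 3 Dicer iKO mice, which carry P0-CreERT2 -/+ and Dicer1 flox/flox, and 3 Dgcr8 iKO mice, which carry P0-CreERT2 -/+ and Dgcr8 flox/flox. The 6 controls were Cre-negative (P0-CreERT2 -/-) mice, 3 with Dicer1 flox/flox and 3 with Dgcr8 flox/flox. All 12 mice were adult, had the C57bl6 background, received tamoxifen and gave sciatic nerve (SN) 3 months after it, so that tamoxifen and the floxed alleles are shared by mutants and controls, and Cre is not. The transgene (P0-Cx32 CreERT2) is driven by a rat myelin gene promoter joined to 5′ sequence of human GJB1 and acts in myelinating SCs, and because not every induced mouse is affected, the study restricted its analysis to mutants with a visible nerve defect. The libraries were members by their labels alone, and the line (Dicer or Dgcr8) entered the test as an additive factor. A gene was called upregulated or downregulated when its log2 fold change was at least 1 in size with an adjusted p of at most 0.05 (edgeR's quasi-likelihood test, Benjamini-Hochberg adjustment), and levels are in CPM, counts divided by the library total after TMM scaling.

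miRNAs are short RNAs that lower the stability and translation of messenger RNAs with a matching site, most often in the 3′ UTR, and pair with it through the seed, their bases 2 to 8. The primary transcript is cut in the nucleus by the microprocessor, in which DGCR8 binds the RNA and Drosha cuts it, and the hairpin that results is cut in the cytoplasm by Dicer, so each line removes a different step of the same pathway. A myelinating SC makes large amounts of myelin protein, cholesterol and galactolipid for its sheath. After nerve injury it leaves the cell cycle arrest and the myelin program and becomes a repair SC, under the transcription factor c-Jun, and macrophages enter the nerve to clear myelin. miRNAs of the let-7 family are abundant in mature nerve and in other differentiated tissues, where they restrain genes of the early embryo.

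The mature sequences of 8 miRNAs of adult nerve are given from RefSeq (GRCm38.p6), because the 3′ UTRs of all genes tested were searched for matches to their seeds. For each, the arm that is usually the abundant one was taken. The capitals mark the seed, and miR-10a and miR-10b share theirs, so the 8 miRNAs have 7 seeds.
mmu-let-7f-5p: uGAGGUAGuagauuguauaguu
mmu-miR-30a-5p: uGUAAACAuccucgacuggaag
mmu-miR-27b-3p: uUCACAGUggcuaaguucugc
mmu-miR-26a-5p: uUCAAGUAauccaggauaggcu
mmu-miR-181a-5p: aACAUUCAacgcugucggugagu
mmu-miR-10a-5p: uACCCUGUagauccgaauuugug
mmu-miR-10b-5p: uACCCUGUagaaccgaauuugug
mmu-miR-22-3p: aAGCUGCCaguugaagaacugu

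Hmga2, a chromatin protein of embryonic and growing cells and a textbook let-7 target, rose in both lines. Its 3′ UTR (3014 bases, GRCm38, minus strand of chromosome 10) holds 4 matches to the let-7 seed, which are shown with the 15 bases before and 1 base after them and with the match in capitals.
Hmga2 site 1, chr10:120364224-120364246: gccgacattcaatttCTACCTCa
Hmga2 site 2, chr10:120362987-120363009: ccccactcctcaataCTACCTCt
Hmga2 site 3, chr10:120362549-120362571: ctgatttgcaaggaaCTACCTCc
Hmga2 site 4, chr10:120361691-120361713: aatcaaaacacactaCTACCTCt
Lin28b, an RNA-binding protein that blocks let-7 maturation and is a let-7 target too, also has 4 matches in its 3′ UTR (4445 bases, minus strand of chromosome 10), and its level was lower in the mutants. The match nearest to its stop codon and the most distant match are shown for comparison.
Lin28b site 1, chr10:45381022-45381044: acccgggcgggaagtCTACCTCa
Lin28b site 4, chr10:45377060-45377082: aaatgatggcaccgaCTACCTCt

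The 12 libraries held between 5594859 and 10143244 counts (median 7820438), so that 3 counts, taken as the lowest level a library can show, correspond to 0.296 to 0.536 CPM, and these limits cover counting error only. The first principal component (59.7% of the variance) separated mutants from controls, and the second (13.8%) separated the lines, with Dicer libraries at -1.29 or above and Dgcr8 libraries at -14.9 or below. On it Dicer control 1 (50.1) and Dicer control 2 (30.3) lay farthest from the rest. Counts of the Y-linked genes Ddx3y and Eif2s3y were 0 in Dicer control 3, Dicer iKO 2 and Dicer iKO 3 and at least 1156 in the other 9 libraries. With those 9 libraries alone, 1506 genes were upregulated and 614 downregulated, against 1491 and 645 with all 12. Without Dicer control 1 the counts were 1666 and 762. In a whole nerve, fewer cells of a type and less RNA per cell cannot be told apart.

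The counts of the recombined genes did not pass the test. In the Dicer line, Dicer1 was measured at 88.1, 87.5 and 90.6 CPM in the 3 controls and at 81.4, 82.2 and 82.0 CPM in the 3 mutants, and the Dicer line alone gave a log2 fold change of -0.11 (edgeR adjusted p = 0.357). In the Dgcr8 line, Dgcr8 was measured at 38.4, 35.4 and 41.8 CPM in the controls and at 39.4, 54.0 and 41.8 CPM in the mutants, and the Dgcr8 line alone gave 0.22 (edgeR adjusted p = 0.233). In the first line the 3 mutants lay below their controls by a small amount, and in the second the groups overlapped. Over the pooled libraries, Dicer1 had a log2 fold change of 0.01 (SE 0.07, edgeR adjusted p = 0.955) and Dgcr8 of 0.20 (SE 0.09, edgeR adjusted p = 0.0816). These counts are summed over all exons and all cells of the nerve, including exons that are not deleted and cells that lack Cre, and so do not check the deletion. The study checked it by quantitative PCR on nerves taken at the same time after tamoxifen. It found less Dicer mRNA in Dicer iKO, less Dgcr8 mRNA in Dgcr8 iKO and less let-7f in both. Drosha, the nuclear enzyme that both lines left intact, was at 48.9 to 56.6 CPM (median 53.5) in controls and at 22.2 to 49.6 CPM (median 34.5) in mutants, with a log2 fold change of -0.61 (SE 0.12, edgeR adjusted p = 0.000906), which is under the fold required for a call, and a slight overlap. Of the 19 members of a miRNA biogenesis list, which also holds Argonaute and TNRC6 genes, 19 were tested, 0 were called, 4 passed the adjusted p alone, and the median log2 fold change was 0.11, beside -0.01 over all 13552 genes tested. Noncoding genes that host miRNAs were not analysed here. Of 24 tested protein-coding genes that host a miRNA in an intron, 1 was called, Srebf2 (log2 fold change -1.34, edgeR adjusted p = 2.98e-05), the master regulator of cholesterol synthesis genes and host of miR-33.

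The pooled comparison estimated 1 effect of the mutation over both lines, so a gene can be called mainly through the change in 1 line. Cfb, for example, was called with a log2 fold change of 0.26 in the Dicer line and 2.52 in the Dgcr8 line. Of 13552 genes tested, 1491 (11.0%) were upregulated and 645 (4.76%) were downregulated. The adjusted p alone was passed by 6720 genes (49.6%). For 3108 genes (22.9%) all 6 mutants lay above or all 6 below the controls. In the gene lists described next, the highest shares of upregulated members were found for macrophage markers (21 of 24) and cell cycle genes (21 of 26), and the highest share of downregulated members, among lists of at least 10 tested genes, for cholesterol synthesis (14 of 21).

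**Figure D1:**
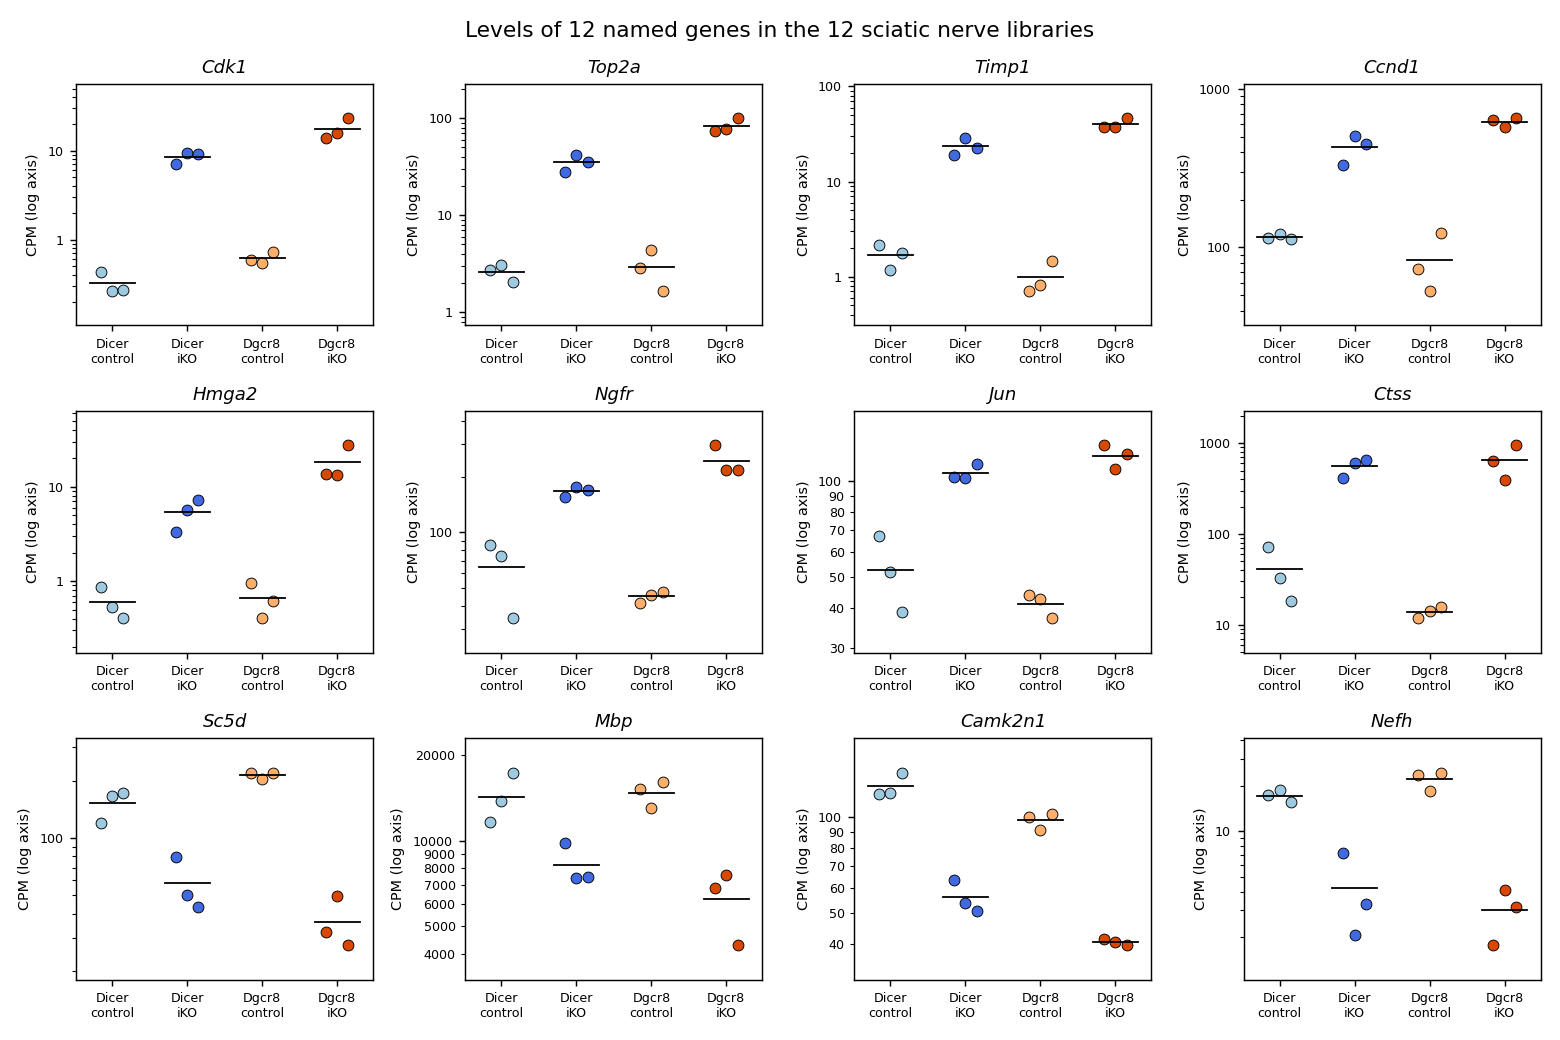
Levels in CPM (log axes, which differ between panels) of 12 genes in the 12 libraries, with points for single mice and a line for the mean of each group of 3. In all 12 panels the 6 mutants lie on 1 side of the 6 controls, above them in the first 8 panels (Cdk1 to Ctss) and below them in the last 4 (Sc5d to Nefh). Cdk1 and Hmga2 were tested only because their mutants passed the filter on low counts (minimum count 10).

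The smallest adjusted p of the whole comparison belonged to Cdk1, the kinase that drives entry into mitosis. It ranged from 0.265 to 0.726 CPM (median 0.488) in controls and from 7.06 to 23.2 CPM (median 11.7) in mutants, and its log2 fold change was 4.75 (SE 0.22, edgeR adjusted p = 7.11e-08). Top2a, the topoisomerase of dividing cells, rose from 1.66 to 4.36 CPM (median 2.79) in controls to 28.0 to 100.2 CPM (median 58.3) in mutants (log2 fold change 4.36, SE 0.24, edgeR adjusted p = 2.73e-07). Both genes had no overlap between mutants and controls, and both were higher in each Dgcr8 iKO nerve than in any Dicer iKO nerve. Cdk1 had 2 to 7 counts in each control, so it passed the filter on low counts (minimum count 10) through the mutants. A higher level in mutants was needed for Cdk1 to be tested, and its lack of overlap is no further evidence. The same holds for Ccnb1 and Kif20a below, with at most 9 and 7 counts in a control. Of 26 cell cycle genes tested, 21 rose and 0 fell, with a median log2 fold change of 2.80. Ccnb1 and Ccna2, the cyclins of mitosis and of DNA replication, rose by 4.29 (SE 0.41) and 3.66 (SE 0.28) on the log2 scale, and Kif20a, a motor of cytokinesis, by 4.16 (SE 0.27). The members that were not called were Bub1b, Mcm3, Mcm6, Pcna and Tyms, with log2 fold changes of 0.29, 0.91, 0.70, 0.18 and 0.30. The summed level of the list ran from 165.7 to 205.2 CPM in controls and from 315.2 to 823.0 CPM in mutants. The count of 21 was the same with any single library left out and with Y-linked transcripts as a further term.

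Among regulators of the G1 phase, Ccnd1, the D-type cyclin that opens the cell cycle in SCs, ranged from 53.2 to 124.3 CPM (median 114.0) in controls and from 330.7 to 654.9 CPM (median 538.2) in mutants. Its log2 fold change was 2.39 (SE 0.23, edgeR adjusted p = 4.35e-06), and the groups did not overlap. Of 10 cyclin D genes and cyclin-dependent kinase inhibitors tested, 4 rose and 0 fell. Besides Ccnd1 these were Ccnd2 (1.05) and the inhibitors Cdkn2b (1.46) and Cdkn2a (1.41), so that genes that promote and genes that block the G1 transition were both among them. A further 4 passed the adjusted p with a change under 2-fold. The inhibitors Cdkn1b (-0.87) and Cdkn1a (-0.70) were lower, and Ccnd3 (0.79) and the inhibitor Cdkn2c (0.75) were higher, with overlap in Cdkn1a only. Cdkn2a levels overlapped, from 0.812 to 14.1 CPM (median 3.04) in controls, with the highest value in Dicer control 1, and from 9.17 to 18.6 CPM (median 10.8) in mutants. The log2 fold change of Ccnd2 was under 1 without Dicer control 3 (0.91).

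Genes that mark repair or immature SCs were raised together. Of 24 tested, 16 rose and 0 fell, with a median log2 fold change of 1.43. Jun, which encodes the c-Jun factor of the injury program, was at 37.2 to 67.3 CPM (median 43.3) in controls and at 101.9 to 129.4 CPM (median 111.2) in mutants, a log2 fold change of 1.28 (SE 0.13, edgeR adjusted p = 8.3e-06). Ngfr, the low-affinity neurotrophin receptor of immature and denervated SCs, was at 34.4 to 85.5 CPM (median 46.8) in controls and at 155.6 to 295.7 CPM (median 196.0) in mutants, a log2 fold change of 1.90 (SE 0.23, edgeR adjusted p = 2.47e-05). Neither gene overlapped between the groups. Gdnf, a trophic factor for motor neurons, was near the detection limit in controls, at 0 to 0.817 CPM (median 0.138), and at 1.47 to 11.8 CPM (median 4.79) in mutants (log2 fold change 4.29, SE 0.42, edgeR adjusted p = 5.28e-06). With at most 6 counts in a control, Gdnf was tested only because the mutants were higher. Shh, a signal that injured SCs make anew, rose from 3.31 to 5.29 CPM (median 4.38) to 13.2 to 39.6 CPM (median 33.7), with a log2 fold change of 2.81 (SE 0.22).

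The remaining repair genes had a wide range of changes. Id2, an inhibitor of differentiation factors, had a log2 fold change of 2.97 (SE 0.17) and the growth factor Btc of 5.03 (SE 0.48). Btc had 1 to 17 counts in a control and was tested only because the mutants were higher. Gpnmb, a glycoprotein of phagocytes and of SCs after injury, went from 23.7 to 66.3 CPM in controls to 477.5 to 1836.9 CPM in mutants, a log2 fold change of 4.73 (SE 0.37). Gfap, an intermediate filament of non-myelinating SCs, rose by 2.67 (SE 0.22), the adhesion receptor Cd44 by 2.60 (SE 0.17), the transcription factor Runx2 by 2.17 (SE 0.19) and the stem cell factor Sox2 by 1.39 (SE 0.16), all on the log2 scale. Some members gave values that did not pass: Cdh2, a cadherin of immature SCs, had a log2 fold change of -0.92, Gap43, a growth protein, of 1.03 with an edgeR adjusted p of 0.0696, and Notch1 of 0.93. Artn, Bdnf, Olig1, Pax3, Fgf5 and Tfap2a were too low to be tested. The summed level of the list was 593.1 to 645.8 CPM in controls and 1594.3 to 3387.1 CPM in mutants. Gpnmb, Cd44 and Tnc are made by macrophages or fibroblasts as well as by SCs, and the part of those cells in the list was not tested.

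Myelin genes changed less than repair genes. Of 20 myelin protein genes tested, 4 fell and 0 rose, and 12 more passed the adjusted p with a change under 2-fold. Drp2, the dystrophin-related protein that links compact myelin to the SC membrane, was at 3961.7 to 6750.8 CPM (median 5138.2) in controls and at 900.7 to 3418.0 CPM (median 1846.8) in mutants, and fell by 1.50 on the log2 scale (SE 0.23, edgeR adjusted p = 0.000155). Dusp15, a phosphatase of myelinating glia, fell by 1.31 (SE 0.17), and Nfasc, which has an SC form at the paranode and an axonal form at the node, by 1.28 (SE 0.23), with overlap in Nfasc only. Mbp, a structural protein of compact myelin, ranged from 11651.2 to 17349.6 CPM (median 14507.0) in controls and from 4285.5 to 9774.8 CPM (median 7400.9) in mutants, with a log2 fold change of -1.02 (SE 0.18, edgeR adjusted p = 0.000389). Leaving out Dgcr8 iKO 3 moved the log2 fold change of Mbp to -0.90, under the fold required. Pmp2, a fatty acid carrier of myelin, and Gjc3, a gap junction protein, had log2 fold changes of 0.70 and 0.69.

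Of 16 transcription factors tied to myelination, Srebf2 fell and Pou3f1 rose. Pou3f1, the Oct6 factor of promyelinating SCs that is shut down in the mature cell, was at 14.5 to 18.7 CPM (median 16.6) in controls and at 18.4 to 53.5 CPM (median 37.0) in mutants, a log2 fold change of 1.09 (SE 0.18, edgeR adjusted p = 0.000214). Egr2, the master factor of the myelin program, was at 217.9 ± 52.4 CPM (SD, n = 6) in controls and 118.3 ± 23.5 CPM (SD, n = 6) in mutants, a log2 fold change of -0.88 (edgeR adjusted p = 0.00089). Sox10, which marks the whole SC lineage, had a log2 fold change of -0.20 (edgeR adjusted p = 0.173).

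Genes of cholesterol synthesis fell together. Of 21 genes tested, 14 fell and 0 rose, with a median log2 fold change of -1.43. Sc5d, a late desaturase, ranged from 120.5 to 220.3 CPM (median 187.8) in controls and from 27.4 to 79.7 CPM (median 46.6) in mutants, and fell by 1.98 on the log2 scale (SE 0.24, edgeR adjusted p = 2.12e-05). Fdft1, the squalene synthase, fell by 1.83 (SE 0.24). Neither gene overlapped between mutants and controls. Ebp and Dhcr7, an isomerase and a reductase of late steps, had log2 fold changes of 0.04 and 0.01. The summed level ran from 2324.7 CPM (Dicer control 1) to 4200.9 CPM in controls and from 866.7 to 1919.1 CPM in mutants, and 14 members fell whichever library was left out. Among 18 genes of fatty acid and galactolipid synthesis, 1 fell, Fa2h, the hydroxylase of myelin galactolipids (log2 fold change -1.17, SE 0.24, edgeR adjusted p = 0.0013). A further 11 passed the adjusted p alone, and 1 to 3 fell with 1 library left out.

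**Figure D2:**
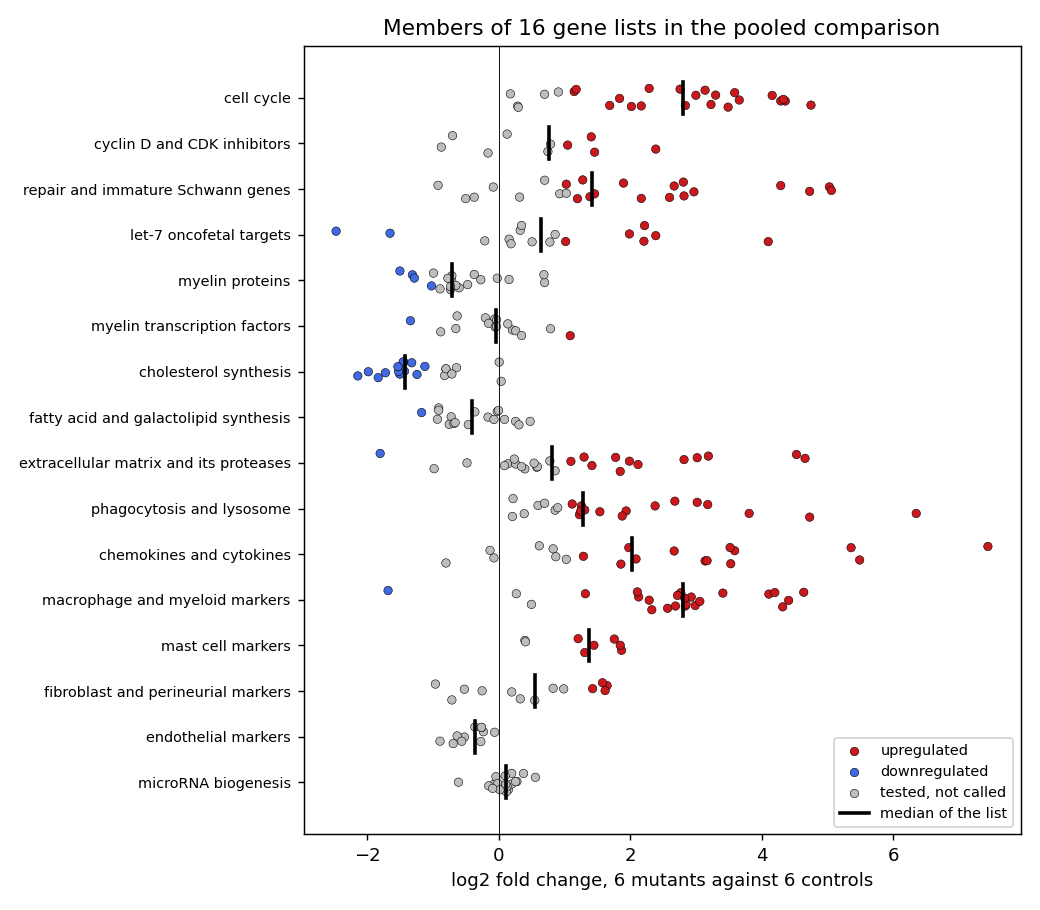
Log2 fold change of the pooled comparison (6 mutants against 6 controls) for each tested member of 16 gene lists, in red where upregulated, in blue where downregulated and in grey where not called, with a bar at the list's median. The cell cycle and macrophage lists have medians of 2.80, the cholesterol list lies at -1.43, and no member of the endothelial and miRNA biogenesis lists was called.

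Markers of macrophages rose with the repair genes. Of 24 macrophage and myeloid markers tested, 21 rose and 1 fell, with a median log2 fold change of 2.80. Ctss, the cathepsin of antigen-presenting cells, was at 11.8 to 71.3 CPM (median 16.9) in controls and at 396.8 to 947.1 CPM (median 621.0) in mutants, a log2 fold change of 4.64 (SE 0.42, edgeR adjusted p = 3.14e-06). Lyz2, the macrophage lysozyme, was at 122.0 to 550.7 CPM (median 147.3) in controls and at 1870.7 to 5576.9 CPM (median 4142.6) in mutants, a log2 fold change of 4.20 (SE 0.36). Trem2, a lipid-sensing receptor of phagocytes, rose by 4.32 (SE 0.40) and Cd68, a lysosomal protein, by 4.11 (SE 0.28). The gene that fell was Cd163, a scavenger receptor of resident macrophages, at 84.1 ± 28.5 CPM (SD, n = 6) in controls and 33.3 ± 27.0 CPM (SD, n = 6) in mutants (log2 fold change -1.68, edgeR adjusted p = 0.00101, with overlap). Mrc1, another gene of resident macrophages, had a log2 fold change of 0.27 (edgeR adjusted p = 0.292). Retnla and Mgl2, which alternatively activated macrophages make, fell by 4.32 (SE 0.66) and 2.37 (SE 0.25), so that the myeloid genes did not move in 1 direction. The summed level of the list was 585.4 to 1186.4 CPM in 5 controls, 1918.0 CPM in Dicer control 1 and 4466.0 to 10932.6 CPM in mutants.

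Genes with roles in phagocytes and in signals to immune cells were counted next. Of 22 genes of phagocytosis and the lysosome, 15 rose and 0 fell (median log2 fold change 1.29). Atp6v0d2, a proton pump subunit of macrophages and osteoclasts, rose by 6.35 (SE 0.44), the cholesterol exporter Abca1 by 3.81 (SE 0.33), Apoe, the lipoprotein of lipid clearance, by 3.18 (SE 0.25) and the protease gene Ctsd by 3.02 (SE 0.22). Atp6v0d2 had 2 to 24 counts in a control and passed the filter on low counts through the mutants. Apoe reached 4269.1 to 10599.1 CPM in mutants, against 637.8 to 1278.1 CPM in controls. Of 26 chemokines and cytokines listed, 20 could be tested, of which 13 rose and 0 fell, with a median of 2.03. Ccl2, which draws monocytes into the nerve, was at 1.89 to 4.60 CPM (median 2.88) in controls and at 21.7 to 57.7 CPM (median 30.5) in mutants, a log2 fold change of 3.53 (SE 0.26, edgeR adjusted p = 7.3e-07). For Ccl8, a monocyte chemokine, 2 counts were found in the 6 controls together and 506 in the 6 mutants, a ratio of 267 after scaling by the library totals (95% exact interval 73.5 to 2210, counting error only). Ccl8 was tested only because the mutants were higher. Ccl3, Tnf and Cxcl5, also among the 13, were low too, at a mean log2 CPM of 0.52, 0.76 and 0.11. A member near 0 in controls had to be higher in mutants to be tested, so the count of 13 and the median lean upward. Of 15 genes of MHC class II and complement, 4 rose and 0 fell, and these were complement genes: C3ar1 (3.06), C1qa (2.85), Cfb (1.35) and C5ar1 (1.28). H2-Aa, H2-Ab1, H2-Eb1 and Cd74, of MHC class II, had log2 fold changes of 0.27 to 0.57 and did not pass the test. H2-DMa and H2-DMb1, which load peptides onto class II molecules, were lower in all mutants than in all controls, with log2 fold changes of -0.89 and -0.90 (edgeR adjusted p = 0.000656 and 0.000217), under the fold required for a call.

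Messages of the extracellular matrix changed mostly upward. Of 26 genes of the matrix and its proteases, 12 rose and 1 fell (median log2 fold change 0.82). Timp1, an inhibitor of matrix proteases, was at 0.709 to 2.16 CPM (median 1.32) in controls and at 19.1 to 46.4 CPM (median 33.1) in mutants, a log2 fold change of 4.53 (SE 0.26, edgeR adjusted p = 2.73e-07). Postn, the matrix protein periostin, rose by 4.66 (SE 0.67), Thbs2, a thrombospondin, by 3.19 (SE 0.25), Plau, the urokinase, by 3.02 (SE 0.30) and Fn1, fibronectin, by 2.12 (SE 0.19). Mmp9, a gelatinase, fell by 1.80 (SE 0.39). Col4a1, Col4a2 and the laminin genes Lama2, Lamb1 and Lamc1, which form the basal lamina of SCs, had log2 fold changes of 0.09 to 0.59 and were not called. Of 13 fibroblast and perineurial markers tested, 4 rose: Col1a1 (1.65), Pi16 (1.62), Col3a1 (1.58) and Lum (1.43). Itgb4, an integrin, and Slc2a1, the glucose transporter GLUT1 of perineurial cells, had log2 fold changes of -0.96 and -0.71 (edgeR adjusted p = 0.000188 and 0.00339) and were not called. The median over the list was -0.38 in the Dicer line and 1.08 in the Dgcr8 line, and Pi16 had 0.58 and 3.22, a difference that did not pass the interaction test. Their summed level was 6864.0 to 14494.4 CPM in 5 controls, 19092.0 CPM in Dicer control 1 and 19311.2 to 25427.4 CPM in mutants. Whether the matrix genes come from fibroblasts was not tested.

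Other cell types were checked by their markers, and the part of these cells in the results above was not tested. Of 11 endothelial markers, 0 were called, while 6 passed the adjusted p alone, and all 11 log2 fold changes were negative (-0.89 to -0.06, median -0.36). Their summed level was 366.7 to 502.5 CPM in controls and 261.4 to 362.6 CPM in mutants, with no overlap. Of 8 mast cell markers, 6 rose (median 1.38), with summed levels of 18.3 to 126.1 CPM in 5 controls, 225.0 CPM in Dicer control 1 and 96.8 to 366.6 CPM in mutants, so that the groups overlapped. Of 18 T and B cell markers, 5 could be tested and 4 rose, Cd4, Cd22, Lck and Trbc2, of which Cd4 and Cd22 can also be made by myeloid cells, while the defining markers were near 0: Cd3e had 0 to 1 counts in controls and 0 to 10 in mutants, and Ms4a1 had 0 to 2 and 1 to 8. Cd4 and Cd22 had at most 11 and 20 counts in a control and passed the filter on low counts through the mutants. A higher level in mutants was thus needed for them to be tested. Lck and Trbc2 were low as well, at a mean log2 CPM of 0.77 and 0.11. The number of T and B cell markers that rose was 4 to 9 with 1 library left out and 9 with the 9 libraries that held Y-linked transcripts. Of 10 neutrophil markers, 2 could be tested, of which Retnlg rose and Cxcr2 fell, and Ly6g had 0 counts in every library. Among adipocyte genes Plin4 fell and Fabp4 rose, and of 6 muscle genes 3 fell and 1 rose, at summed levels of at most 28.7 CPM. The 5 red blood cell genes fell by 2.39 to 2.62 on the log2 scale, but without Dicer control 1, which held 3750.1 CPM of them against 46.2 to 360.3 CPM in the other controls, 0 of the 5 were called.

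Several of the genes with the largest rise were barely expressed in controls (genes named for size had separate groups and a mean log2 CPM above 1). Mmp27, a matrix metalloproteinase, had 0 counts in all 6 controls and 257 in the mutants, at least 90.3-fold higher than the 3 counts that the group of controls could have missed. Itgax, the integrin CD11c of activated myeloid cells, ranged from 0.236 to 4.03 CPM (median 0.774) in controls and from 44.9 to 209.3 CPM (median 92.3) in mutants, a log2 fold change of 6.38 (SE 0.54, edgeR adjusted p = 1.72e-06). Saa1, an acute phase protein, had 3 counts in controls and 286 in mutants, a ratio of 101 (95% exact interval 34.1 to 490). Mcoln3, a cation channel of endosomes (6.07), Htr2b, a serotonin receptor (6.06), Wif1, a secreted Wnt inhibitor (6.05), and Nr1h4, the bile acid receptor (5.88), also rose, with the log2 fold changes given. Mmp27, Saa1, Mcoln3, Htr2b, Wif1 and Nr1h4 had under 10 counts in every control. Itgax had 28 counts in Dicer control 1 and at most 10 in each other control. All of these genes passed the filter on low counts (minimum count 10) through the mutants, so their separation is no further evidence.

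The 10 largest falls, chosen by the same rule, included genes known from neurons and from cilia. Nefh, the heavy neurofilament chain of large axons, was at 15.6 to 24.4 CPM (median 18.5) in controls and at 1.77 to 7.19 CPM (median 3.24) in mutants, a log2 fold change of -2.43 (SE 0.27, edgeR adjusted p = 1.24e-05). Stmn3, a microtubule regulator of neurons, and Rph3a, a protein of synaptic vesicles, had log2 fold changes of -2.39 (SE 0.26) and -2.55 (SE 0.30). Dnah9, a motor of motile cilia, changed by -2.71 (SE 0.48), and Ttll6, a tubulin-modifying enzyme, by -2.62 (SE 0.36). Both had under 10 counts in every mutant and passed the filter on low counts through the controls, so their separation is no further evidence. The neuronal cell bodies lie outside the SN, and the source of these messages was not tested. The smallest adjusted p among genes that fell belonged to Camk2n1, an inhibitor of CaM kinase II, at 91.2 to 138.0 CPM (median 110.4) in controls and 39.6 to 63.4 CPM (median 46.1) in mutants, a log2 fold change of -1.22 (SE 0.08, edgeR adjusted p = 3.7e-07). Of 13 potassium channel and nodal genes, 4 fell and 2 rose. Cntnap2, which gathers potassium channels beside the node, fell by 1.94 (SE 0.38), and Kcnj10, the glial inward rectifier, rose by 4.25 (SE 0.25), from 1.22 to 2.65 CPM in controls to 15.1 to 60.7 CPM in mutants. Of 14 neurotrophic and ErbB receptor genes, 0 were called, with log2 fold changes of 0.34 for Erbb2 and 0.39 for Erbb3, the neuregulin receptor of SCs.

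The 2 lines share no library, so their own changes can be set side by side. Tested alone (3 against 3), the Dicer line had 961 upregulated (7.37%) and 214 downregulated genes (1.64%) of 13045, and the Dgcr8 line 1778 (13.4%) and 926 (6.99%) of 13252. Of the 961 genes raised in the Dicer line, 940 were tested in the Dgcr8 line, 934 had the same sign there and 845 were called (89.9% of those tested). In the other direction, 845 of 1609 genes raised in the Dgcr8 line were called in the Dicer line (52.5%). For downregulated genes, 177 of 205 of the Dicer line (86.3%) and 177 of 891 of the Dgcr8 line (19.9%) were called in the other line. Across the 12897 genes tested in both, the log2 fold changes had a Pearson's r of 0.858, given as a description with no test, since genes are not independent replicates. Of the 1845 genes called in the pool and tested in both lines, 1589 changed more in the Dgcr8 line, and the median size of the log2 fold change was 1.27 in the Dicer line and 1.80 in the Dgcr8 line.

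**Figure D3:**
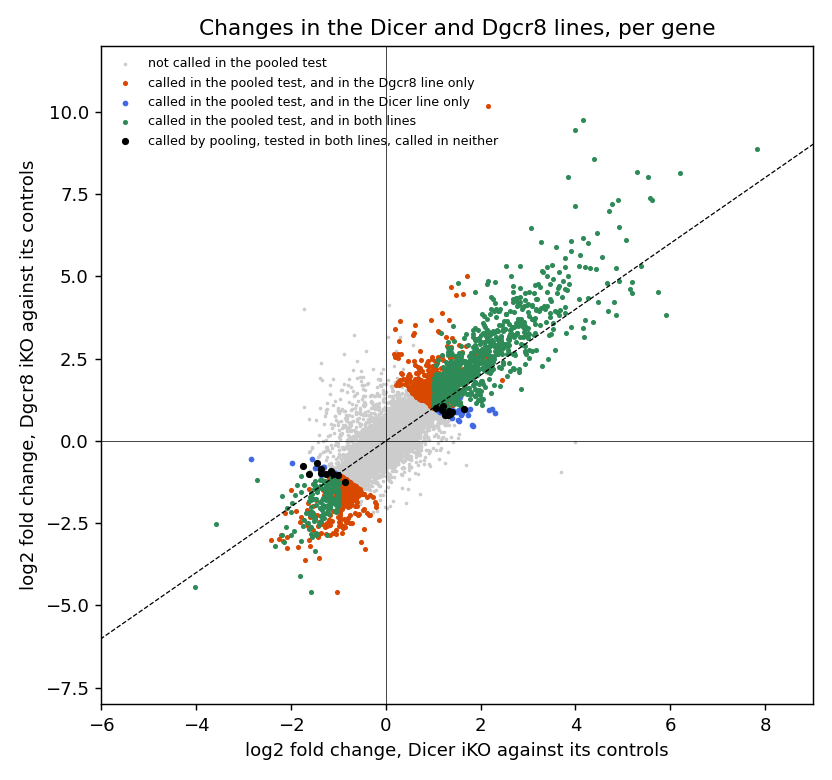
Log2 fold change of each gene tested in both lines, in the Dicer line (horizontal axis) and in the Dgcr8 line (vertical axis), coloured by where it was called, with a dashed line of equal change. Of the 1845 coloured or black points, 1589 lie farther from 0 on the vertical than on the horizontal axis, and the 21 black points are the genes called by pooling and in neither line that both lines tested.

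A test of the difference between the lines (interaction of line and mutation, adjusted p alone) called 2 of 13552 genes (0.0148%). At an unadjusted p under 0.05 there were 1861 genes, where chance gives about 1 in 20 of those tested. A gene that was not called is thus not shown to change alike in both lines. Plvap, a protein of fenestrated endothelium, was at 0.676 to 1.44 CPM in Dicer controls, 0.831 to 1.87 CPM in Dicer iKO, 0.236 to 0.415 CPM in Dgcr8 controls and 8.87 to 13.8 CPM in Dgcr8 iKO, and its change was larger by 4.78 on the log2 scale in the Dgcr8 line (SE 0.62, edgeR adjusted p = 0.0462). Per3, a circadian clock gene, was at 118.3, 124.5 and 142.0 CPM in Dicer controls and 104.3, 102.4 and 96.4 CPM in Dicer iKO, against 90.7, 114.0 and 84.7 CPM and 28.6, 34.2 and 31.5 CPM in the Dgcr8 line, a difference of -1.27 (SE 0.18, edgeR adjusted p = 0.0495). The number of such genes was the least stable count of the comparison: 240 were called by DESeq2, 401 without Dicer control 3, and 0 in each of 8 other leave-outs.

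Of the 1491 upregulated genes, 845 (56.7%) were called in both lines, 524 in the Dgcr8 line only, 58 in the Dicer line only and 64 (4.29%) in neither, that is, only by pooling. Of the 645 downregulated genes, the corresponding numbers were 177 (27.4%), 396, 21 and 51 (7.91%). Genes found only by pooling were expressed at low levels. Their median log2 CPM was 0.29 for those that rose and 0.51 for those that fell, against 3.78 and 4.21 for genes called in both lines, and the median SE of their log2 fold change was 0.52 and 0.42, against 0.25 and 0.21. All 6 mutants lay above the controls for 16 of the 64 and below them for 7 of the 51, beside the 22.9% of all genes tested.

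Most of them had not been tested in at least 1 line. For 37 of the 64 and 25 of the 51, neither line tested the gene, because too few of its 6 libraries passed the expression filter, while enough of the 12 pooled libraries did. A gene that passed the filter through mutant libraries alone had to be higher in them. When both single-line tests were instead run on the 13552 genes of the pooled test, an alternative added after the data were seen, 37 genes that rose and 29 that fell were found only by pooling, of which 31 and 28 belonged to the original 64 and 51. Where the Dicer line did test the gene, the usual reason was an adjusted p above 0.05 at a sufficient fold (21 genes that rose and 17 that fell). The Dgcr8 line had 2 and 3 genes that met the adjusted p and missed the fold. The pooled call itself was kept in all 12 leave-outs of a library by 35 of the 64 and 25 of the 51.

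The genes named from this class are those with the smallest adjusted p. Siglecg, an inhibitory lectin of B cells and some myeloid cells, was at 0 to 0.265 CPM (median 0.111) in controls and at 1.04 to 2.36 CPM (median 1.70) in mutants, a log2 fold change of 3.80 (SE 0.51, edgeR adjusted p = 4.98e-05). For Il1a, an alarm cytokine, the controls together held 2 counts and the mutants 166, a ratio of 87.5 (95% exact interval 23.8 to 729). The lowest mutant level of Il1a, 0.955 CPM in Dgcr8 iKO 2, was near the detection limit. Tyrp1, a pigment cell enzyme, had 3 counts in controls and 81 in mutants (ratio 28.5, interval 9.4 to 141), Col6a4, a collagen VI chain, 1 and 76 (ratio 80.1, interval 14.0 to 3210), and Apoc4, a small apolipoprotein, 2 and 80 (ratio 42.2, interval 11.3 to 354). The ubiquitin-like Ubd (log2 fold change 3.81, SE 0.65), the water channel gene Aqp5 (4.01, SE 0.69) and Lrrtm1, a synaptic adhesion protein (2.78, SE 0.53), completed the 8. All 8 passed the filter on low counts through the mutants, so that a higher level in mutants was needed for them to be tested at all, and the absence of overlap is no further evidence. None of the 8 had passed the filter of either line alone, and when both lines were tested on the genes of the pooled test, each of the 8 was called in at least 1 line and no longer belonged to this class. The pooled call of each was kept in all 12 leave-outs.

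**Figure D4:**
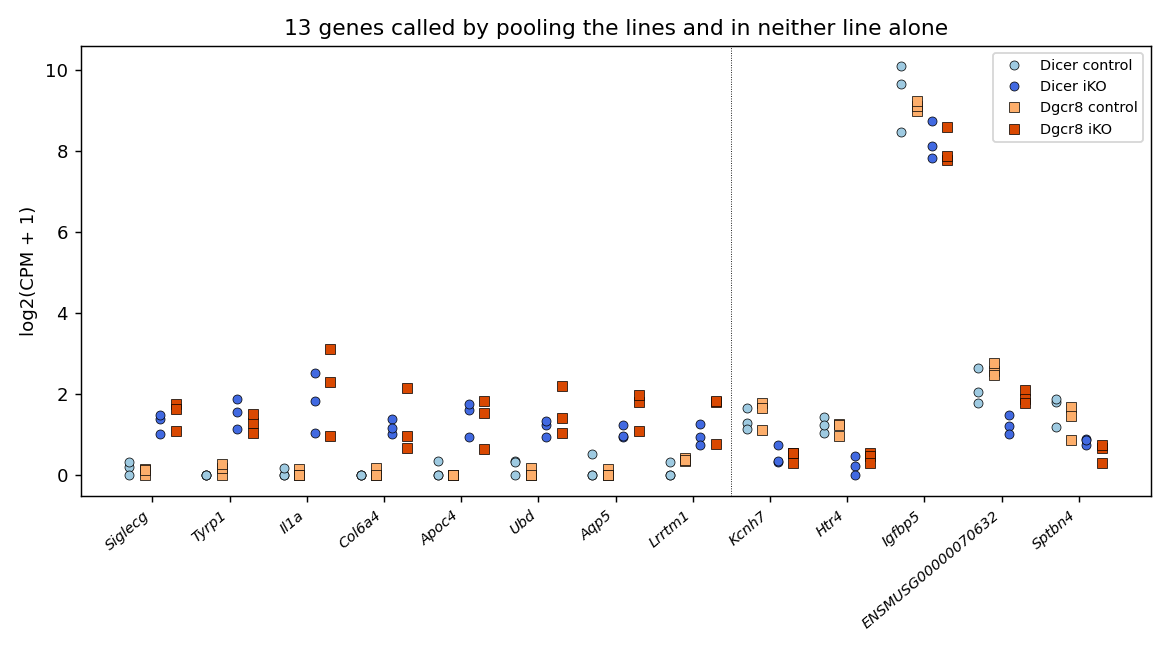
Levels, as log2(CPM + 1), of the 13 named genes found only by pooling, with circles for single mice of the Dicer line, squares for the Dgcr8 line and lighter colours for controls. The 8 genes left of the dotted line rose, with all mutants above all controls but at no more than 7.67 CPM, and of the 5 that fell only Igfbp5 is expressed at a high level.

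Of the 5 genes named from those that fell, 3 had low levels. Kcnh7, a potassium channel, was at 1.18 to 2.45 CPM (median 1.81) in controls and 0.234 to 0.691 CPM (median 0.374) in mutants, and Htr4, a serotonin receptor, at 0.953 to 1.73 CPM and 0 to 0.472 CPM, with log2 fold changes of -2.12 (SE 0.36) and -2.14 (SE 0.43) and no overlap. Sptbn4, the spectrin of nodes of Ranvier, had a log2 fold change of -1.55 (SE 0.35, edgeR adjusted p = 0.00228) with overlap. Kcnh7, Htr4 and Sptbn4 passed the filter through the controls, and each was called in at least 1 line when the lines were tested on the genes of the pooled test. Igfbp5, a secreted binder of insulin-like growth factors, was the abundant member, at 352.8 to 1080.6 CPM (median 572.5) in controls and 216.4 to 424.2 CPM (median 256.0) in mutants, and fell by 1.13 (SE 0.24, edgeR adjusted p = 0.00173). Each line missed it narrowly, the Dicer line by its adjusted p (log2 fold change -1.27, edgeR adjusted p = 0.0597) and the Dgcr8 line by its fold (-0.99, edgeR adjusted p = 0.00272). The log2 fold change of Igfbp5 was -0.95 without Dicer control 1 and -0.91 with the presence of Y-linked transcripts as a term, in both cases under the fold required. ENSMUSG00000070632, which has no symbol in the files, fell by 1.08 (SE 0.24) in a like manner. Chek2, a kinase of the DNA damage checkpoint, was named after its values were seen, as a case where the lines missed a gene for different reasons: the Dicer line had 1.64 (edgeR adjusted p = 0.087) and the Dgcr8 line 0.97 (edgeR adjusted p = 0.0189), while the pool gave 1.27 (SE 0.34, edgeR adjusted p = 0.00644) with no overlap.

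Genes that let-7 is known to hold down in differentiated cells were called in both directions. Of 16 let-7 oncofetal targets tested, 6 rose and 2 fell, with a median log2 fold change of 0.65. Hmga2, whose 4 sites are printed above, was at 0.406 to 0.945 CPM (median 0.576) in controls and at 3.33 to 27.4 CPM (median 10.3) in mutants, a log2 fold change of 4.10 (SE 0.38, edgeR adjusted p = 3.15e-06). With 3 to 8 counts in each control, Hmga2 passed the filter on low counts through the mutants, so a higher level there was needed for a test. Hmga1, a related chromatin protein, rose by 2.22 (SE 0.26), Dna2, a nuclease of replication, by 2.21 (SE 0.34), Thbs1, a thrombospondin, by 1.99 (SE 0.25), and Ccnd1 as given above. Igf2bp2, an RNA-binding protein, had a log2 fold change of 1.02 (SE 0.24, edgeR adjusted p = 0.00344), and the log2 fold change of Igf2bp2 was 0.85 without Dgcr8 iKO 3. Lin28b was at 1.46 ± 0.346 CPM (SD, n = 6) in controls and 0.26 ± 0.269 CPM (SD, n = 6) in mutants, all below the controls, with a log2 fold change of -2.47 (SE 0.47, edgeR adjusted p = 0.000685). The mutant mean of Lin28b lies under the 0.296 to 0.536 CPM that 3 counts make. Lin28b passed the filter through the controls, so the absence of overlap is no further evidence, and the Dicer line alone did not test it. Igf2bp1 fell by 1.65 (SE 0.57, edgeR adjusted p = 0.0272) and was found only by pooling. Its groups overlapped, and its pooled call was kept in 8 of 12 leave-outs, so that 1 to 2 members of the list fell with 1 library left out. Lin28b and Igf2bp1 each have 4 let-7 matches, as many as Hmga2, while Thbs1 and Ccnd1 have 0 in the 3′ UTR used here.

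Over the 13150 tested genes with an annotated 3′ UTR (longest coding transcript of each gene in GENCODE M21), 1226 (9.32%) held at least 1 match to the let-7 seed, written CTACCTC and searched on the sense strand only. Matches were found in 10.5% of upregulated and 7.26% of downregulated genes. The median log2 fold change was -0.02 for the 11924 genes with no match, 0.04 for the 1077 with 1 match and 0.14 for the 149 with 2 or more, and 10.9%, 12.1% and 14.8% of these were upregulated. Genes with more matches have longer 3′ UTRs (medians 912.5, 2062 and 3610 bases). Within the shortest, middle and longest groups of 3′ UTRs, cut at equal gene numbers, genes with a match had medians of 0.12, 0.12 and 0.02 and genes without had -0.01, -0.01 and -0.03. For the other 6 seeds, the medians of genes with 2 or more matches lay between -0.05 and 0.01. A match is a run of letters, and whether it is used in SCs was not measured.

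**Figure D5:**
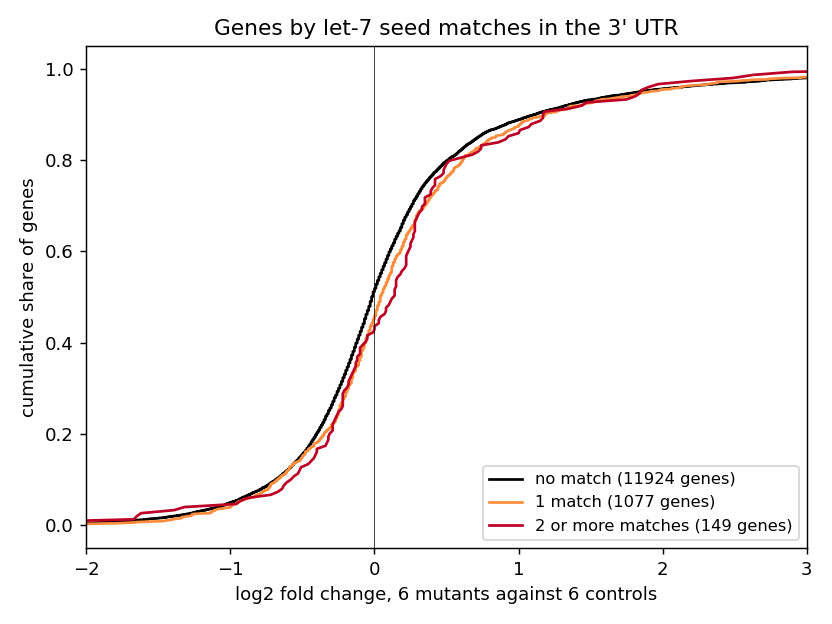
Cumulative share of genes (vertical axis) up to each log2 fold change of the pooled comparison (horizontal axis), for genes with no match, with 1 match and with 2 or more matches to the let-7 seed in the 3′ UTR. The curves of genes with matches lie to the right of the black curve by a small amount, with medians of -0.02, 0.04 and 0.14.

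Beside 11.0% of all genes tested that rose and 4.76% that fell, 3 of the 25 genes with 3 or more let-7 matches rose and 2 fell. Besides Hmga2 they were Ptafr, the receptor of platelet-activating factor (log2 fold change 2.63, SE 0.28, edgeR adjusted p = 8.48e-06), and Slc22a23, an orphan transporter (1.17), on the side that rose, with Lin28b and Igf2bp1 on the other. Ptafr was at 7.59 ± 3.37 CPM (SD, n = 6) in controls and 46.9 ± 14.0 CPM (SD, n = 6) in mutants. Nr6a1, an orphan nuclear receptor with 8 matches, had a log2 fold change of 0.33, Nudt12 with 7 matches of -0.53 and Trim6 with 6 matches of 0.46. None of them was called. The counts of called genes were not tested against the shares of all genes. Ptafr is made by macrophages, whose markers rose as well.

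Crushed nerves of the same study offer a readout that shares no library with the mutants. They were compared with contralateral nerves at 3 days after the crush (4 against 4, with no term for the mouse), and of the 13052 genes tested in both experiments, 2171 (16.6%) rose and 1805 (13.8%) fell after crush. Of the genes upregulated in the pooled mutants, 1359 were tested after crush, and 1022 of these (75.2%) rose and 17 fell. With the replicate number as a block in both fits, the count of 1022 became 1015. Of the downregulated genes 578 were tested, and 456 (78.9%) fell and 6 rose. The shares were lower for genes found only by pooling: 16 of 29 that rose (55.2%) and 14 of 31 that fell (45.2%) moved the same way after crush, against 80.4% and 83.4% of genes called in both lines, and the difference was not tested. Igfbp5, which fell in the mutants, rose by 2.38 after crush (edgeR adjusted p = 8.15e-10). Mmp9 had a log2 fold change of 4.47 after crush and of -1.80 in the mutants. The mast cell genes Cpa3, Cma1 and Mcpt4, which rose in the mutants, fell after crush by 2.45, 2.70 and 3.77, and Col1a1 had a log2 fold change of -0.42 there and of 1.65 in the mutants. Mcoln3 had a log2 fold change of -0.10 after crush (edgeR adjusted p = 0.837).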

How the data were processed

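Total RNA of sciatic nerves, depleted of ribosomal RNA, was sequenced in stranded libraries, with 1 mouse per library in the mutant series. Crushed nerves were sampled as a piece distal to the injury, and the contralateral nerves came from operated mice. The authors trimmed reads with Trimmomatic, aligned them to GRCm38 with STAR and deposited RSEM output per transcript: expected counts, used here, and, in the mutant series, TPM, computed by the authors and not used for any value printed. RSEM shares reads between near-identical genes, so values of such families are uncertain.

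Expected counts of a gene's transcripts were added up and rounded to whole numbers. A gene was tested if it passed edgeR's filterByExpr (minimum count 10, 4 groups). Fits used TMM factors and edgeR 4.0.16 quasi-likelihood tests in R 4.3.3 with line as an additive term. Each line was also fitted alone, and an interaction of line and mutation was tested. Genes were called at a change of 2-fold or more with a Benjamini-Hochberg adjusted p up to 0.05. SEs were derived from each log2 fold change and its F statistic (size over root F). Calculations were tested on simulated data. Exact 95% intervals of count ratios cover counting error only. The crushed and contralateral nerves were fitted separately, and the 3 uncrushed libraries were not used. Some genes are not reported here. Seed matches were searched in 3′ UTRs of GENCODE M21.

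The comparison and gene lists were chosen with earlier results of these data known. Genes were named by rule: the 10 highest and 10 lowest log2 fold changes among called genes without overlap and with mean log2 CPM of at least 1, the 5 smallest adjusted p per direction, the 8 upregulated and 5 downregulated genes with the smallest adjusted p among those found only by pooling, the interaction genes, Dicer1, Dgcr8, Drosha, Jun, Ngfr and Gdnf, and called list members with the largest changes. List members that were not called, genes with 3 or more let-7 matches, and Chek2 were named after their values were seen. Replicates differed by more than sampling noise, so none was counted as a repeat of another. Alternatives covered normalization, filter, test, threshold, gene types, replicate block, line term and each library left out.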

Additional observations from a re-analysis of the deposited data

Results flagged for a closer look

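Among 291 groups of 6 libraries (controls or mutants, for each named gene), 16 had a library farther from the rest than Dixon's 95% value of 0.625 allows, where chance gives about 1 in 20, and 7 of the 16 were in Dicer control 1. That library was above the other 5 controls for Mcoln3 (0.863 against at most 0.135 CPM), Htr2b (1.15 against at most 0.271 CPM), Apoc4 (0.288 against 0 CPM), Aqp5 (0.431 against at most 0.118 CPM), Cd4 (1.58 against at most 0.265 CPM) and Cd22 (2.88 against at most 0.591 CPM). It was below them for the cholesterol gene Hsd17b7 (53 against at least 94.6 CPM), so that in all 7 genes it lay on the side of the mutants. Where it was high, the other controls lay near 0, so an outlying control had little room except above, and the shared direction is no evidence. The values of Apoc4 and Aqp5 rest on 2 and 3 counts. The same library had the highest summed macrophage, mast cell, fibroblast and red blood cell markers of the controls, and their part was not tested.

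Dicer control 3 was above the other controls for Nr1h4 (0.676 against at most 0.132 CPM) and below them for Ccna2 (0.406 against at least 1.30 CPM). Dgcr8 control 2 was above the other controls for Retnla (31.9 against at most 6.35 CPM) and, on 1 count, for Col6a4 (0.136 against 0 CPM). Among mutants, the high libraries were Dgcr8 iKO 2 for Ubd (3.63 against at most 1.65 CPM), Dicer iKO 1 for Dtd1 (18.0 against at most 14.1 CPM) and Dicer iKO 3 for Cdkn2a (18.6 against at most 11.9 CPM). Dgcr8 iKO 3 was high for Gdf15 (36.1 against at most 9.33 CPM) and Zmat3 (52.9 against at most 33.3 CPM), both on the list of p53 targets.

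Plvap and Per3 differed between the lines by the interaction test, by 4.78 and -1.27 on the log2 scale (effect in the Dgcr8 line minus effect in the Dicer line, edgeR adjusted p = 0.0462 and 0.0495).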

How the results depend on the processing

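The upregulated and downregulated counts (1491 and 645) stayed within 1.5 times under each alternative but 1: with at least 10 counts required in every library they were 881 and 405, with 579 genes also raised after crush (1022 before), and 1 and 2 found only by pooling. Fewer genes were tested there. With 1 library left out they ranged from 1420 to 1666 and from 577 to 813. Genes found only by pooling (64 and 51) numbered 143 and 95 with no filter, 110 upregulated at an adjusted p of at most 0.01, and 37 and 29 with the same genes tested in every fit, an alternative added after seeing the data, as were those on Y-linked transcripts. They ranged from 70 to 138 and from 56 to 96 with 1 library left out, which leaves 2 libraries in an arm of a line, and passed 1.5 times without any library of the Dicer line (105 to 138 upregulated) and without Dgcr8 iKO 1 (102). The count of genes that differ between the lines (2) was 1 with RLE factors, 20 with no filter, 240 with DESeq2, 0 at an adjusted p of at most 0.01 and 0 with at least 10 counts in every library, and ranged from 0 to 401 with 1 library left out. The cause was not tested.

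Mutants and controls of a line share replicate numbers, but residuals of same-numbered libraries correlated at -0.154 to 0.0642 in the Dicer line and -0.136 to 0.0754 in the Dgcr8 line, so that the numbers were not taken to pair mice. Same-numbered crushed and contralateral nerves correlated at -0.0942 to 0.177, with 2 of 4 values over 0.1, and were not taken as pairs either. With a replicate block, 1469 and 636 genes were called, 97 upregulated and 62 downregulated genes were found only by pooling, and 0 genes differed between the lines.

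The log2 fold change of Dicer1 ranged from -0.03 to 0.02 with 1 library left out and did not pass the test. Calls with a log2 fold change near 1 or with outlying libraries (globin genes, Rsad2, Igf2bp2, Mbp, Cfb, Cadm3, Ccnd2 and, in 1 to 3 alternatives, Igfbp5, Foxo4, Zmat3, Pou3f1 and others) were lost in some alternatives. With 3 libraries a group and 5594859 to 10143244 counts a library, genes near 1 CPM rest on a few counts each.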

Other observations

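Of 11 p53 targets tested, 3 rose and 0 fell: Gdf15, a stress cytokine (log2 fold change 5.73), Eda2r, a death domain receptor (2.20), and Zmat3, an RNA-binding protein (1.13). Gdf15 had 0 to 5 counts in a control and was tested only because the mutants were higher. Cdkn1a, the p21 inhibitor, had -0.70 and Mdm2, the regulator of p53, 0.23, and neither was called. Of 12 stress response genes 1 rose, Sesn2 (1.96), a sensor of amino acid supply, with values of 0.30 for Atf4 and 0.75 for Hspa5. Of 13 interferon-stimulated genes 1 rose (Oas1a, 1.23) and 1 fell (Rsad2, -1.04), with a median of -0.04. Over all 13552 genes tested, 11.0% rose and 4.76% fell, and the lists here and below were not tested against these shares.

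Of 10 imprinted growth genes, Peg10, a placental gene, rose (1.2), while Igf2, a fetal growth factor, and Dlk1, an inhibitor of fat cell differentiation, fell (-1.93 and -2.78, edgeR adjusted p = 0.000216 and 0.00107). Grb10, a brake on insulin signalling, had 0.74 and was not called.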
